A study of Mus musculus with 20 samples.

Results

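Gzma and Ccl5, transcripts of cytotoxic and tissue-resident T cells, were followed in the proximal colon (PC) of mice on 4 diets. They were chosen from a list of 8 genes of T cells and intraepithelial lymphocytes, matched by Ensembl gene identifier through mouse GENCODE, out of 12701 genes counted. Both stand here for the list, and the other 6 genes (Cd3e, Cd3g, Cd3d, Cd8a, Itgae, and Gzmb) were not analysed here. RNA came from a short PC segment next to the cecum of 20 C57BL/6 mice, an inbred strain, with 5 libraries on each diet. From weaning, at 3 to 4 weeks of age, all mice were kept for 6 weeks on the Total Western Diet (TWD), a feed matched to American nutrient intake. For 3 further weeks this diet held 0, 2, 5, or 10% of resistant potato starch (RPS). RPS is raw potato starch, which passes the small intestine largely undigested and is fermented in the cecum and colon. The 0% RPS mice stayed on the basal diet and served as the control.

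Intraepithelial lymphocytes (IEL) are T cells that sit between the epithelial cells of the gut, and many of them carry a cytotoxic programme without recent activation. Granzyme A, encoded by Gzma, is a serine protease stored in the granules of cytotoxic T cells and natural killer cells and released into target cells. Ccl5 encodes RANTES, a chemokine that memory and cytotoxic T cells keep as ready mRNA and that draws further T cells, monocytes, and eosinophils. IEL are held in the epithelium by integrins that bind E-cadherin and are maintained by epithelial factors such as interleukin 15 and the butyrophilin-like proteins.

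A whole PC segment contains epithelium, muscle, and lamina propria, so the level of a T cell gene in it reflects both the number of cells and the RNA per cell, which cannot be told apart. Of the 8 genes set as T cell markers, only Lck was analysed here, and of the 7 set for natural killer and innate lymphoid cells none was, so the source of Gzma and Ccl5 was not resolved to a cell type. The epithelial and smooth muscle markers of a colon wall were all present, 10 of 10 and 8 of 8. The libraries held 20581013 to 35083751 counts. The library 0% RPS replicate 2 stood apart: its summed smooth muscle markers (315228 normalised counts), macrophage markers (4198), and plasma cell markers (19315) exceeded the highest of all other libraries (282342, 2920, and 12903). The label numbers of 3 libraries (2% RPS replicate 5 and 10% RPS replicates 4 and 5) lie outside the run of the others, and what the numbers stand for is not stated. Values without these libraries are given for some results only.

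Gzma (ENSMUSG00000023132) lies on chromosome 13 of GRCm39, from 113230355 to 113237524 on the minus strand, with 5 exons in its canonical transcript and no overlapping gene in the annotation. Ccl5 (ENSMUSG00000035042) lies on chromosome 11, from 83416602 to 83425942 on the minus strand, with 3 exons, and overlaps the gene Gm73713 on the opposite strand. Of the 50-base windows in their transcripts, the length of the reads, 0 of 1733 for Gzma and 0 of 1021 for Ccl5 occur in a transcript of another gene. The 250 bases before the start of Gzma in RefSeq (GRCm38.p6) occur at 1 place in GRCm39, chr13:113237516-113237765 on the minus strand. The last bases of this window lie inside the gene as placed above, so the RefSeq and GENCODE starts differ, and positions below count from the RefSeq start. Only this window is shown because the RefSeq promoters used held an entry for Gzma and none for Ccl5. In capitals are matches, on either strand, to letters bound by factor families used in cytotoxic T cells, chosen with the expression results known.

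Gzma promoter: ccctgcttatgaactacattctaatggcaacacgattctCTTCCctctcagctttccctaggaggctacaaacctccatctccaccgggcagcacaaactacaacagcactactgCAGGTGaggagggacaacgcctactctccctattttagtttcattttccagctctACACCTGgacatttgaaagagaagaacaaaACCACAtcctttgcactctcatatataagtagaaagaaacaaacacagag

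The RUNX core TGTGGT matched at 1 place, -50 from the start, and 14.0% of 32851 RefSeq promoters hold it within their windows. The ETS core GGAAG matched at 1 place (-211), as in 64.1% of promoters. The E box CAGGTG matched at 2 places (-135 and -79), as in 17.2% of promoters, and the T-box site AGGTGT at 1 (-80), overlapping an E box, as in 11.8%. The exact TATA box letters TATAAA had no match in this window, and 12.4% of all promoters hold them. Other forms of the TATA box were not searched for, and the stretch tatataag lies near the end of the window. These matches are letters in the reference and were not tested for binding.

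Gzma was among the weaker transcripts of the tissue. Its mean over the 20 libraries was 30.9 normalised counts (read counts divided by the library's size factor), or 34.7 per kb of canonical transcript, and 6.04% of the genes had a lower level per kb. Ccl5 was higher, at 80.7 normalised counts or 151 per kb, above 36.3% of the genes. Raw counts ran from 13 to 66 for Gzma and from 45 to 118 for Ccl5. An exact 95% Poisson interval around the lowest Gzma count spans 6.92 to 22.2 and around the highest 51.0 to 84.0, so the libraries differed by more than counting error. Intervals of this kind cover counting error only. The spread between libraries of the same diet was 49.9% of the mean for Gzma, against 18.3% given by counting, and 31.7% against 11.3% for Ccl5.

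Whether dietary RPS changed these genes was asked first for Gzma. On 0% RPS, the 5 libraries had 24.1, 16.7, 51.8, 10.4, and 44.6 normalised counts of Gzma in the order of their replicates. On 2% RPS they had 20.8, 56.6, 33.8, 70.6, and 18.8, and on 5% RPS 32.0, 32.0, 33.8, 18.7, and 36.7. On 10% RPS they had 18.8, 30.2, 31.4, 23.3, and 12.6. All 4 diets overlapped, the lowest library was on 0% RPS, and the highest was on 2% RPS. The means were 29.5 ± 17.9 on 0% RPS, 40.1 ± 22.7 on 2% RPS, 30.7 ± 6.93 on 5% RPS, and 23.2 ± 7.88 on 10% RPS (SD, n = 5 each). The order from highest to lowest was therefore 2, 5, 0, and 10% RPS, and no contrast between neighbours in it passed the test.

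**Figure D1:**
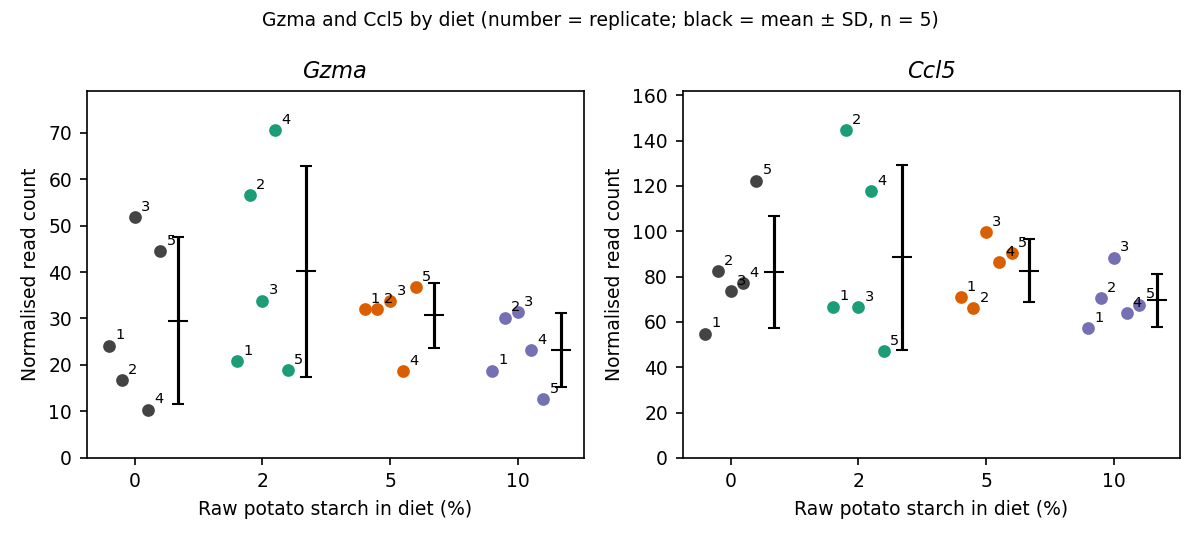
Normalised read counts of Gzma (left) and Ccl5 (right) against the percentage of raw potato starch in the diet, with 1 point for each library, its replicate number beside it, and the mean ± SD of 5 libraries in black. The diets overlap in both panels, and on 2% RPS replicates 2 and 4 are the highest for both genes (56.6 and 70.6 for Gzma, 145 and 118 for Ccl5).

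Against 0% RPS, Gzma had a log2 fold change of 0.44 (SE 0.43) on 2% RPS, with a 95% interval of -0.40 to 1.28 and a DESeq2 adjusted p of 0.797. On 5% RPS the log2 fold change was 0.05 (SE 0.43, interval -0.79 to 0.90, adjusted p = 0.969). On 10% RPS it was -0.34 (SE 0.44, interval -1.20 to 0.51, adjusted p = 0.701). As folds these intervals run from 0.759 to 2.43 on 2% RPS, from 0.579 to 1.86 on 5% RPS, and from 0.436 to 1.42 on 10% RPS. This leaves room for a change of the called size at each level. The widest gap between diets was 10% against 2% RPS, at -0.79 (interval -1.64 to 0.06, unadjusted p = 0.0695, DESeq2 adjusted p = 0.613). Replicates 2 and 4 on 2% RPS were the highest of the 20 libraries, with the other 3 of that diet between 18.8 and 33.8.

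Ccl5 was steadier. On 0% RPS the libraries had 54.9, 82.3, 73.6, 77.3, and 122 normalised counts of Ccl5 in the order of their replicates. On 2% RPS they had 66.7, 145, 66.5, 118, and 47.1, and on 5% RPS 70.9, 65.9, 99.5, 86.4, and 90.3. On 10% RPS they had 57.4, 70.4, 88.3, 64.0, and 67.7. The diets overlapped again, with both the highest and the lowest library on 2% RPS. The means were 82.1 ± 24.8 on 0% RPS, 88.6 ± 40.9 on 2% RPS, 82.6 ± 13.9 on 5% RPS, and 69.5 ± 11.6 on 10% RPS (SD, n = 5 each). The order of means was 2, 5, 0, and 10% RPS, as for Gzma, and no contrast between neighbours passed the test.

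Against 0% RPS, the log2 fold change of Ccl5 was 0.10 (SE 0.26, 95% interval -0.41 to 0.62, DESeq2 adjusted p = 0.936) on 2% RPS. It was 0.01 (SE 0.26, interval -0.51 to 0.52, adjusted p = 0.994) on 5% RPS. On 10% RPS it was -0.24 (SE 0.27, interval -0.76 to 0.28, adjusted p = 0.651). As folds the intervals of Ccl5 run from 0.751 to 1.54 on 2% RPS, from 0.703 to 1.44 on 5% RPS, and from 0.59 to 1.21 on 10% RPS. They leave room for a rise of the called size on 2% RPS and for a fall of that size on 10% RPS. The 3 contrasts share the 0% RPS libraries.

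A change was called where the DESeq2 adjusted p was at most 0.05 and the fold at least 1.5. By this rule 0 of the 2 genes changed on 2% RPS, where 0.0239% of all genes tested did, 0 of 2 on 5% RPS (0.438% of all genes), and 0 of 2 on 10% RPS (0.917%, of which lower calls were 0.381% of all genes). Between starch diets it was 0 of 2 for 5% against 2% RPS (0% of all genes), 0 of 2 for 10% against 2% RPS (0.0557%), and 0 of 2 for 10% against 5% RPS (0.00796%). Neither gene had an unadjusted p under 0.05 in any of these contrasts by DESeq2 or by edgeR's quasi-likelihood test, and edgeR called 0 of 2 in each (0% of all genes on 2% RPS, 0.0566% on 5% RPS, and 0.323% on 10% RPS). Among the 4 diets together, the DESeq2 adjusted p was 0.718 for Gzma and 0.872 for Ccl5, where 2.38% of all genes passed (0.0566% by edgeR, which passed 0 of 2). The slope over the percentage of RPS was -0.05 log2 units per percentage point for Gzma (SE 0.04, adjusted p = 0.490) and -0.03 for Ccl5 (SE 0.02, adjusted p = 0.550), where 4.29% of all genes passed, 1.89% with a falling slope (1.33% by edgeR, which passed 0 of 2). Of the 3 libraries with label numbers outside the run, 2% RPS replicate 5 was the lowest of its diet for both genes (18.8 and 47.1). Without these 3, Gzma stood at 0.62 on 2% RPS and at -0.14 on 10% RPS, and Ccl5 at 0.27 and -0.19, with 0 of 2 genes changed at either level.

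The 2 genes varied together from mouse to mouse. Over the 20 libraries, Pearson's r between log2(normalised count + 1) of Gzma and of Ccl5 was 0.58 and Spearman's rho 0.49, and 14 of 20 libraries lay on the same side of both medians. With the diet means subtracted r was 0.56. Without the 2 libraries with Gzma farthest from its median (0% RPS replicate 4 and 10% RPS replicate 5) it was 0.68. These are descriptions, and both values of a point come from 1 library and share its size factor. The libraries high in both genes were 2% RPS replicates 2 and 4 and 0% RPS replicate 5, which held 3 of the 4 highest values of Gzma and the 3 highest of Ccl5. The library 0% RPS replicate 2, with the most muscle and macrophage markers, was low in Gzma (16.7) and ordinary in Ccl5 (82.3).

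**Figure D2:**
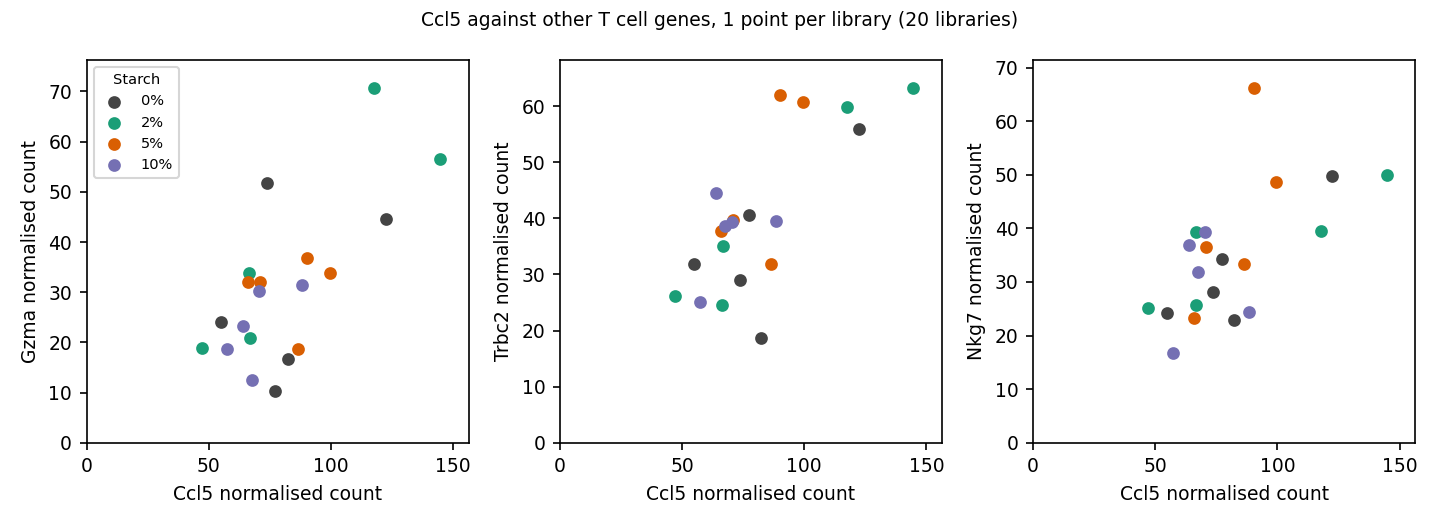
Normalised counts of Gzma, Trbc2, and Nkg7 against those of Ccl5, with 1 point for each of the 20 libraries, coloured by the percentage of raw potato starch. Libraries higher in Ccl5 tended to be higher in the other genes (r = 0.58, 0.68, and 0.64 on log2(normalised count + 1)), and no diet separates from the rest. There were exceptions, such as 0% RPS replicate 4, which ranked 9 for Ccl5 and 20 for Gzma from the highest.

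Of 12336 genes that averaged 10 normalised counts or more, the gene most like the mean of Gzma and Ccl5 over the 20 libraries was Trbc2 (r = 0.67), a constant region of the T cell receptor beta chain and part of the antigen receptor of T cells. It was followed by Gm42742 (0.63), the immunoglobulin light chain segment Igkv17-127 (0.62), Cnih4 (0.61), and Tmem255b (0.59). These are the top of a search over 12336 genes in 20 libraries. How high r runs by chance in such a search was not tested, so the rank of Trbc2 does not show a shared cell source. Trbc2 had 18 to 61 counts per library, and its windows were shared to 44.0% with its near-identical copy Trbc1, so its count is uncertain. Trbc2 was correlated with Ccl5 at r = 0.68 and with Gzma at 0.51. Nkg7, a protein of cytotoxic granules, had r = 0.64 with Ccl5 and 0.39 with Gzma, and Ctsw, a protease of cytotoxic lymphocytes, had 0.50 and 0.30. The other genes of the cytotoxic list were Srgn, with 0.16 and -0.02, and Xcl1, a chemokine of activated cytotoxic cells, with 0.23 and -0.20. Nkg7 and Xcl1 were picked for mention after their values were seen. The 5 genes of IEL residency had r from 0.14 to 0.42 with Ccl5 and from -0.17 to 0.18 with Gzma. Lck, the kinase that starts T cell receptor signalling, had 0.19 with Ccl5 and 0.02 with Gzma. The 3 T cell transcription factors had r from 0.18 to 0.31 with Ccl5 and from -0.13 to 0.31 with Gzma.

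With markers of other cells the correlations lay on both sides of 0. Ccl5 had r from -0.45 to -0.33 with the 3 B cell and follicle markers (Cd79a, Cd79b, and Cxcl13), and Gzma from -0.20 to -0.12. With the 8 macrophage markers Gzma had r from -0.49 to -0.06 and Ccl5 from -0.22 to 0.27. With the 8 smooth muscle markers Gzma had -0.13 to 0.02 and Ccl5 0.14 to 0.30. With the 10 epithelial markers, r ran from -0.37 to 0.37 for Gzma and from -0.32 to 0.09 for Ccl5. The 4 pan-leukocyte markers had r from -0.30 to -0.02 with Gzma and from -0.06 to 0.04 with Ccl5. For the 4 plasma cell markers the ranges were -0.27 to -0.18 with Gzma and -0.27 to 0.10 with Ccl5. Of the 9 genes listed for mast cells only Kit was analysed, so its source in the colon wall was not resolved to a cell type. Kit had 0.37 with Ccl5 and -0.11 with Gzma.

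**Figure D3:**
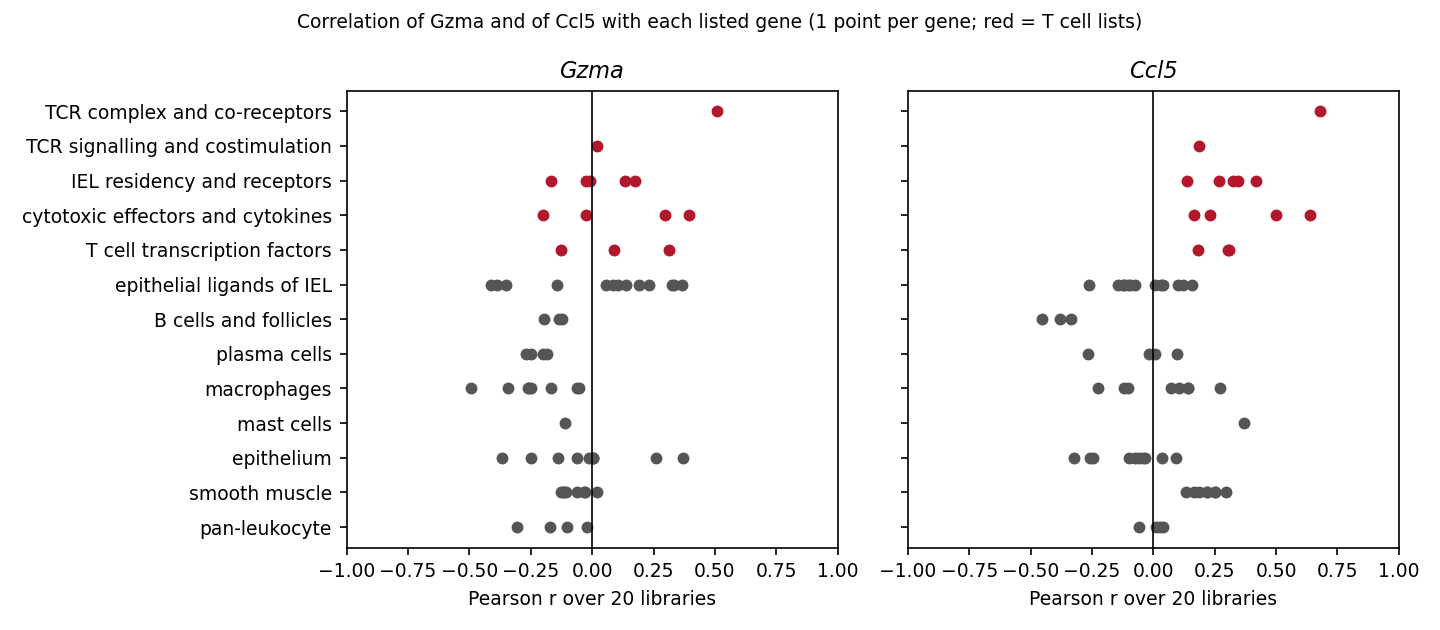
Pearson's r over 20 libraries between Gzma (left) or Ccl5 (right) and each gene of the listed groups, with 1 point per gene and the T cell groups in red. Trbc2 stands highest in both panels (0.51 and 0.68), and the B cell and follicle markers lie below 0 in both.

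A wider list of 74 genes of the T cell receptor, its signalling, IEL residency, cytotoxic effectors, and T cell transcription factors was then read, of which 14 are reported here. By the rule above, DESeq2 called 0 of the 14 on 2% RPS, 0 on 5% RPS, and 0 on 10% RPS, and edgeR called 0 of 14 at each level. By unadjusted p under 0.05, DESeq2 had 0, 3, and 2 of 14 and edgeR 0, 3, and 2. Of all genes tested, DESeq2 had 8.7, 16.6, and 19.1% at this level and edgeR 8.09, 15.9, and 18.0%. The median log2 fold change of the 14 was -0.07 on 2% RPS, 0.11 on 5% RPS, and -0.05 on 10% RPS, against -0.01, -0.01, and -4.8e-05 over all genes tested. The smallest DESeq2 adjusted p among them was 0.663 on 2% RPS, 0.0892 on 5% RPS (Cd7), and 0.100 on 10% RPS (Lck). Over the 4 diets together and in the trend, 0 of the 14 passed by either tool.

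**Figure D4:**
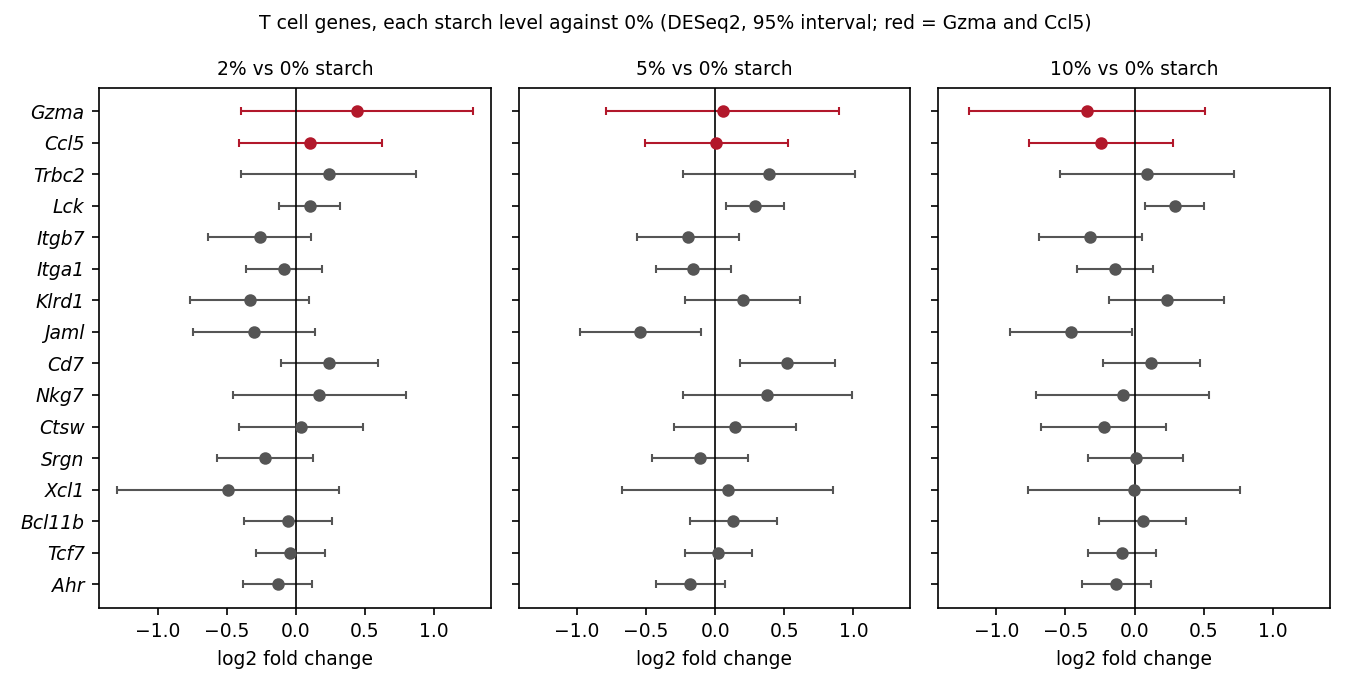
Log2 fold change and 95% interval of Gzma, Ccl5 (both red), and 14 other T cell genes on 2, 5, and 10% RPS against 0% RPS from DESeq2. None of these genes is past the threshold, and the intervals of Gzma and Ccl5 include 0 in all 3 panels.

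The T cell receptor and its signalling were represented by Trbc2 and Lck. Trbc2 had 18.7 to 56.0 normalised counts on 0% RPS, 24.5 to 63.2 on 2%, 31.8 to 61.9 on 5%, and up to 44.6 on 10% RPS, and its log2 fold changes were 0.24, 0.39, and 0.09 (DESeq2 adjusted p = 0.866, 0.551, and 0.905). Lck had a median of 149 on 0% RPS, 172 on 2%, 200 on 5%, and 196 on 10% RPS. Its log2 fold change was 0.29 on both 5% RPS (SE 0.11, adjusted p = 0.137) and 10% RPS (SE 0.11, adjusted p = 0.100). Without 0% RPS replicate 2, whose Lck was the highest of its diet (196), the value was 0.37 at both levels with adjusted p of 0.0241 and 0.0149, which remained under the 1.5-fold threshold. The slope of Lck over RPS then passed at an adjusted p of 0.0259, against 0.0794 with all libraries, and it passed without 10% RPS replicate 1 (0.0375).

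Among the genes listed as IEL receptors, Itga1, the collagen-binding integrin alpha 1 chain, and Cd7 had the highest levels per kb (212 and 90.7). Itga1 averaged 2367 normalised counts, against 180 for Lck and 40.2 for Trbc2, and its source in the colon wall was not resolved to a cell type. Itga1 had log2 fold changes of -0.08, -0.16, and -0.14 at 2, 5, and 10% RPS (adjusted p = 0.894, 0.587, and 0.602), and 13.2% of its windows are shared, including with overlapping genes such as Mocs2, so its count is uncertain. Cd7, a surface receptor of T and natural killer cells, had 65.6 to 97.2 normalised counts on 0% RPS and 103 to 128 on 5% RPS. The log2 fold change of 0.52 (SE 0.18) had an adjusted p of 0.0892 by DESeq2 and 0.173 by edgeR. How many of all genes separate these 2 diets as far was not counted. On 10% RPS, Cd7 had 74.4 to 96.6 and a value of 0.12 (adjusted p = 0.753). Cd7 shares 32.6% of its windows with the antisense gene Gm11775, and the strand setting of the count is not stated. Jaml, a junctional adhesion molecule-like receptor of epithelial T cells, was chosen for mention after its values were seen. It had 78.8 to 195 normalised counts on 0% RPS, with 0% RPS replicate 2 the highest, 64.0 to 112 on 5% RPS, and 77.2 to 90.5 on 10% RPS. Its log2 fold change was -0.54 on 5% RPS (SE 0.22, DESeq2 adjusted p = 0.191) and -0.46 on 10% RPS (SE 0.22, adjusted p = 0.234). Without 0% RPS replicate 2 these values were -0.26 and -0.18 (adjusted p = 0.451 and 0.588). Jaml shares 15.3% of its windows with the overlapping gene Gm10684. Among the cytotoxic effectors, Srgn, the proteoglycan core of secretory granules, and Ctsw had the highest levels per kb (82.6 and 61.3), with log2 fold changes on 10% RPS of 0.01 and -0.22 (adjusted p = 0.986 and 0.618). On 0% RPS, Srgn was 297 in replicate 2 and 139 to 177 in the others, and its fold change without that library is not given here. The transcription factor Ahr, a ligand-activated receptor needed to maintain IEL, had -0.13 on 10% RPS (adjusted p = 0.597), and Bcl11b, which fixes T cell identity during development, had 0.06 (adjusted p = 0.874).

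**Figure D5:**
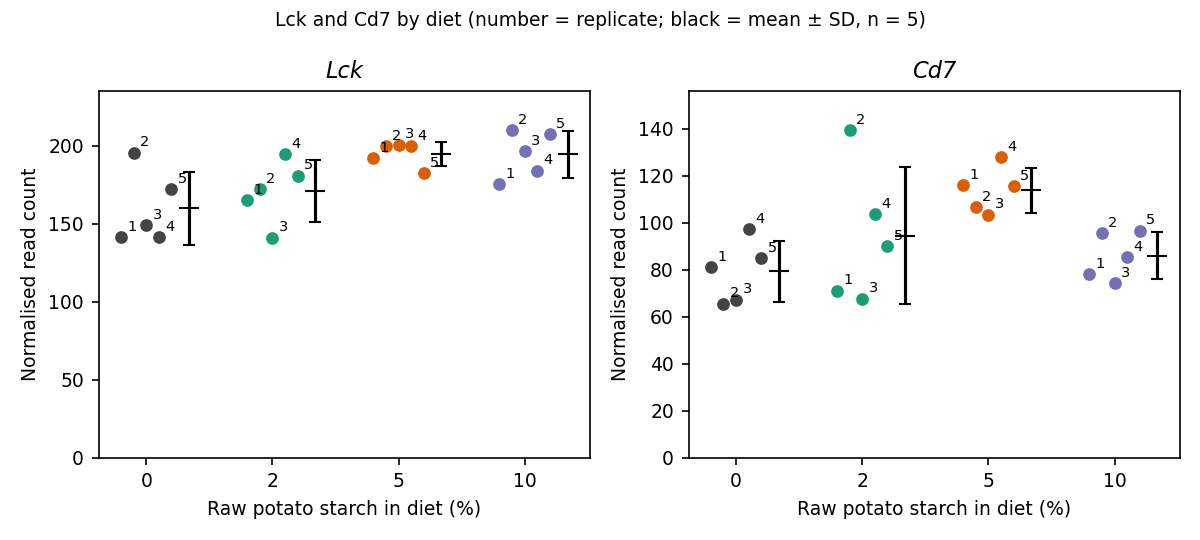
Normalised read counts of Lck (left) and Cd7 (right) against the percentage of raw potato starch, with 1 point for each library, its replicate number, and the mean ± SD of 5 libraries in black. Mean Lck runs from 160 on 0% RPS to 195 on 10% RPS with overlap between diets, and Cd7 has its highest mean on 5% RPS (values 103 to 128).

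The epithelial genes that hold or feed IEL were read from a list of 17, of which 13 were analysed here. None changed at 2, 5, or 10% RPS by the rule above, by DESeq2 or by edgeR, and 0, 2, and 2 of them had an unadjusted p below 0.05 by either tool, where 8.7, 16.6, and 19.1% of all genes tested by DESeq2 did, and 8.09, 15.9, and 18.0% by edgeR. The median log2 fold change of the 13 was 0.04, 0.02, and 0.09. Cdh1, the E-cadherin that anchors IEL, had 5397 normalised counts per kb, and its log2 fold change on 10% RPS was 0.15 (SE 0.06, adjusted p = 0.122). Btnl4, a butyrophilin-like gene, had 3100 per kb and 0.24 on 10% RPS (SE 0.16, adjusted p = 0.419), with 14.0% of its windows shared with related copies such as Btnl7-ps. H2-T3, the nonclassical class I gene of the thymus leukemia antigen, which binds the CD8αα homodimer of IEL, was chosen for mention after its values were seen. It had 3046, 1444, 3089, 3377, and 3639 normalised counts on 0% RPS, with replicate 2 far below the others, and 2169 to 2901 on 10% RPS. Its slope over RPS was -0.02 per percentage point with all libraries (adjusted p = 0.380) and -0.04 without 0% RPS replicate 2 (adjusted p = 0.000643). Without that library the value on 10% RPS was -0.38 (adjusted p = 0.00244), under the 1.5-fold threshold. The low level of 0% RPS replicate 2 was not particular to H2-T3. It was also the lowest of its diet in Btnl4 (2956, diet median 5738), Btnl1 (2106, median 3807), and Btnl6 (1703, median 3562). Other listed genes, such as Tgfb1 (336, median 190), were highest there. Btnl1, Btnl6, and Tgfb1 were named after their values were seen. Fold changes of these genes without that library are not given here.

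Markers of other cells were read beside these values. The summed epithelial markers (10 genes) ran from 973492 to 1122705 normalised counts on 0% RPS and from 1171253 to 1688508 on 10% RPS. Such a sum is carried mostly by the most abundant markers, and 0 of the 10 passed the rule with the fold threshold. On the log2 scale at 10% RPS, Epcam had 0.19 (DESeq2 adjusted p = 0.00666) and Krt20 0.47 (DESeq2 adjusted p = 0.0193), both under 1.5-fold. By edgeR their adjusted p was 0.0950 and 0.0800. Car1 had 0.63, Krt18 and Krt19 had 0.10 each, and Lgals4 had -0.01, with a median of 0.17 over the 10. The summed smooth muscle markers ran from 147277 to 315228 on 0% RPS and from 153868 to 252696 on 10% RPS. The 4 pan-leukocyte markers analysed of 6 ran from 758 to 1519 and from 1103 to 1345, and the macrophage markers, 8 of 8, from 1757 to 4198 and from 1975 to 2920. The part of these shifts in the values of Gzma and Ccl5 was not tested beyond a fit with a smooth muscle score as a covariate, in which 0 of 2 genes changed.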

How the data were processed

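Single-end 50-base reads were made from PC RNA of 20 mice with a stranded mRNA kit. The authors trimmed by quality, dropped reads with over 2 ambiguous bases, aligned to GRCm39 and counted in CLC Genomics Workbench. They deposited raw whole-number read counts per gene. The annotation, the use of strand, and the rule that left 12701 genes are not stated. Groups came from the diet in the labels, and replicate numbers only name the libraries of a diet. Symbols and coordinates came from GENCODE M39 (12682 genes matched).

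DESeq2 (version 1.42.0, R version 4.3.3), the tool of the study, was fitted to the counts of all 20 libraries with diet as the only term, with Wald tests, a likelihood ratio test over the 4 diets, and a linear fit on the percentage of RPS. Adjusted p (Benjamini-Hochberg) covers all genes tested, and the trend and the 4-diet test used no fold threshold. edgeR (version 4.0.16, TMM, quasi-likelihood) was the main alternative. Others were TMM factors, a filter at 10 counts in 5 libraries, independent or Cook filtering off, no fold threshold, the 2 diets alone, a smooth muscle covariate, and omission of 3 libraries or of each library. The code was tested on simulated data.

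Named were Gzma and Ccl5, the wider T cell genes that passed against 0% RPS or in the trend, the 2 genes of highest level per kb in each list, and the 5 genes most correlated with the mean of Gzma and Ccl5. Others are said to have been chosen later, and a gene that met the rule is not reported here. The genes and lists were chosen with earlier results of these data known.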

Additional observations from a re-analysis of the deposited data

Results flagged for a closer look

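Of 80 groups of 5 libraries (20 genes on 4 diets, of which Nkg7, Xcl1, Jaml, and H2-T3 were chosen after their values were seen), 3 held a library far from the other 4 by Dixon's test at the 95% level, which flags about 1 in 20 groups by chance. On 5% RPS, Gzma was 18.7 normalised counts in replicate 4 and 32.0 to 36.7 in the others. On 0% RPS, Srgn was 297 in replicate 2, the library with the highest muscle, macrophage, and plasma cell markers, and 139 to 177 in the others. In the same library, H2-T3 was 1444, against 3046 to 3639 in the others.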

How the results depend on the processing

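None of the 29 alternatives, 20 of which left out 1 library, called Gzma or Ccl5 in any contrast. The log2 fold changes of both genes at 2, 5, and 10% RPS kept their sign under the alternatives with all libraries and without the 3 libraries, but values near 0 turned with 1 library left out. Gzma on 5% RPS ran from -0.17 to 0.36 when 1 library was left out, Ccl5 on 2% RPS from -0.14 to 0.29, and Ccl5 on 5% RPS from -0.11 to 0.19. Signs held for Gzma on 2% RPS (0.13 without 2% RPS replicate 4 to 0.75 without 0% RPS replicate 3), Gzma on 10% RPS (-0.57 without 0% RPS replicate 4 to -0.03 without 0% RPS replicate 3), and Ccl5 on 10% RPS (-0.35 without 0% RPS replicate 1 to -0.05 without 0% RPS replicate 5). The count of 0 of 14 wider T cell genes at 2, 5, and 10% RPS was 0 under every alternative, as was that of 0 of 13 epithelial genes. The causes of the turned signs were not tested. The correlation of Gzma with Ccl5 was 0.58 on log2 CPM with TMM factors and 0.50 to 0.65 with 1 library left out. In the count tests, an adjusted p removed by DESeq2's filters was kept as missing, and a gene without one could not be called. Over the alternatives at 2, 5, and 10% RPS, such missing values numbered 4, 13, and 1 for Gzma and Ccl5. They numbered 26, 56, and 2 for the wider T cell genes and 16, 8, and 0 for the epithelial genes. No paired analysis was possible because the labels give the diets no shared replicate numbers. Counting error was 18.3% of the mean for Gzma and 11.3% for Ccl5, below the spread within diets of 49.9% and 31.7%.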
